A study of Mus musculus with 6 samples.

Results

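The subject is 10 mouse genes of protein folding in the endoplasmic reticulum (ER), read on 6 Affymetrix expression arrays of mouse embryonic fibroblasts. The rule names them by symbol and uses no measured value, although they were proposed with earlier results of these data known: Hspa5, Hsp90b1, Hyou1 and Dnajb9 (chaperones of the Hsp70 and Hsp90 systems), Calr and Canx (lectin chaperones), Pdia3, Pdia4 and Pdia6 (disulfide isomerases) and the transcription factor Xbp1. All 10 were measured, among 18193 genes, by 25 probe sets that the platform annotation gives to exactly 1 gene. For each gene the probe set that was brightest on average across the 6 arrays gave its main value. There were 3 arrays of wild-type cells (MEF-WT, here WT) and 3 of cells labelled abl/arg knockout (MEF-DKO, here DKO), that is, lacking both members of the Abl tyrosine kinase family, c-Abl (encoded by Abl1) and Arg (encoded by Abl2). Both groups came from C57BL/6 embryos at 14 days of gestation, pooled over males and females, and were cultured in DMEM (Dulbecco's modified Eagle's medium) with 10% heat-inactivated serum of fetal cattle. The labels do not say how the genes were deleted, whether the cells were immortalised, or whether replicates are separate cultures, so the p-values rest on the spread among arrays of a group, which may be technical.

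Proteins bound for the cell surface or the outside of the cell fold in the ER. Hsp70-type and Hsp90-type chaperones hold unfolded chains there, lectin chaperones hold those that carry sugar chains, and disulfide isomerases form and reshuffle bonds between cysteines. When unfolded proteins build up, the sensors IRE1, PERK and ATF6 start the unfolded protein response, in which XBP1 and ATF6 switch on genes for chaperones and for ER-associated degradation. Fibroblasts make this machinery in quantity because they secrete collagen and other matrix proteins.

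Median signals of the deposited arrays were 13.4 to 13.7 in WT and 14.4 to 14.7 in DKO, so the groups did not overlap. Means taken without the most extreme signals ran from 107.8 to 110 over the 6 arrays. Neither targeted gene was clearly lower in the arrays labelled DKO: the main probe set of Abl1 read 184.8 ± 4.46 in WT and 169.8 ± 8.22 in DKO (log2 difference -0.11, 95% interval -0.23 to 0.01, adjusted p = 0.0929), and that of Abl2 256.1 ± 9.30 and 254.1 ± 11.9 (SD, n = 3 arrays each; adjusted p = 0.874, both from limma). The position of these probes relative to the deletions was not analysed here, and every direction below is that of the arrays labelled DKO. Of 17 fibroblast markers, 13 were above the median probe set signal of 15.6 in WT and 12 in DKO. Pdgfra was below this median in WT (9.99, against 1789 in DKO), and Thy1, Fap and Lum were below it in both groups. The collagen genes Col1a2 (2284 in WT and 9.71 in DKO) and Col3a1 (1934 and 14.9) were below it in DKO. Col1a1 (412.8 and 1478) and Prrx1 (135.7 and 2888) were higher in DKO. Over the 17, 9 rose and 4 fell, and the summed signal was 15637 to 16583 in WT and 25879 to 26949 in DKO. The summed signal of 12 macrophage and leukocyte markers was 207.5 to 223.4 in WT and 573.3 to 614.2 in DKO. Cd14 (99.9 in WT and 400.8 in DKO), Lyz2 (9.11 and 72.4) and Cd68 (19.3 and 41.0) rose, Laptm5 and Cd52 fell and 7 did not pass. Of those that did not pass, Csf1r was above 15.6 in both groups (34.5 and 30.3), and Ptprc and Tyrobp were below 4.5 in each. Sums of the 8 endothelial markers were 323.6 to 353.8 in WT and 69.3 to 83.4 in DKO, mostly through Egfl7 (291.2 and 32.1), while 6 of the 8 did not pass. Pecam1, Cdh5, Tek and Tie1 were below 15.6 in both groups, and Kdr was above it in both (19.8 and 16.7). Sums of the 8 epithelial markers (5 lower, 3 not called) were 95.3 to 112.5 and 54.5 to 64.7, and those of the 7 muscle markers (2 lower, 5 not called) 104.01 to 115.98 and 65.8 to 73.7. Sums of the 6 neural markers were 239.1 to 252.1 and 505.5 to 585.9, with Sox2 (3.67 and 236.2) and Nes (40.6 and 228.6) higher, Tubb3 (52.9 and 8.14) and Map2 (101.1 and 30.3) lower and 2 not called. For RNA quality, 3' over 5' signal on the log2 scale was 0.47 ± 0.03 in WT and 0.36 ± 0.01 in DKO for beta-actin control probe sets (SD over 3 arrays a group, n = 3; two-sided exact permutation p = 0.1, the smallest that 3 arrays against 3 allow) and -0.15 ± 0.04 and -0.17 ± 0.04 for those of Gapdh (exact p = 0.6). The part of these ratios and of the markers in the differences below was not tested. In bulk samples, fewer cells of a type and less RNA per cell cannot be told apart.

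Of the 10 genes, 9 rose in DKO and 1, Pdia4, fell, at an adjusted p under 0.05 over all 18193 genes. The same call was made for 59.7% of all genes, 24.2% in the upward and 35.5% in the downward direction, and for 38.5% and 47.4% of the 6635 genes with a mean log2 signal above 7, as all 10 had. As deposited, no gene reached a 2-fold change (a log2 difference of 1) with its main probe set. Calr (0.99), Pdia3 (0.97) and Dnajb9 (0.90) came nearest, and with arrays centred on the median they passed it (1.10, 1.08 and 1.01). As deposited, 7.0% of all genes rose and 8.77% fell at least that far, and 10.7% of the brighter genes rose so. Differences are DKO minus WT on log2(signal + 16), and their median was 0.55 over the 10 genes, -0.03 over all genes and -0.08 over genes above a mean log2 of 7. The groups did not overlap on any of the 10 genes: all DKO arrays lay above all WT arrays for the 9 and below them for Pdia4, against 25.7% and 39.0% of all genes. Many other genes moved as far. Calr, with the largest rise of the 9, exceeded the differences of 89.2% of the brighter genes and Hyou1, the smallest of the 9, those of 67.8%.

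**Figure D1:**
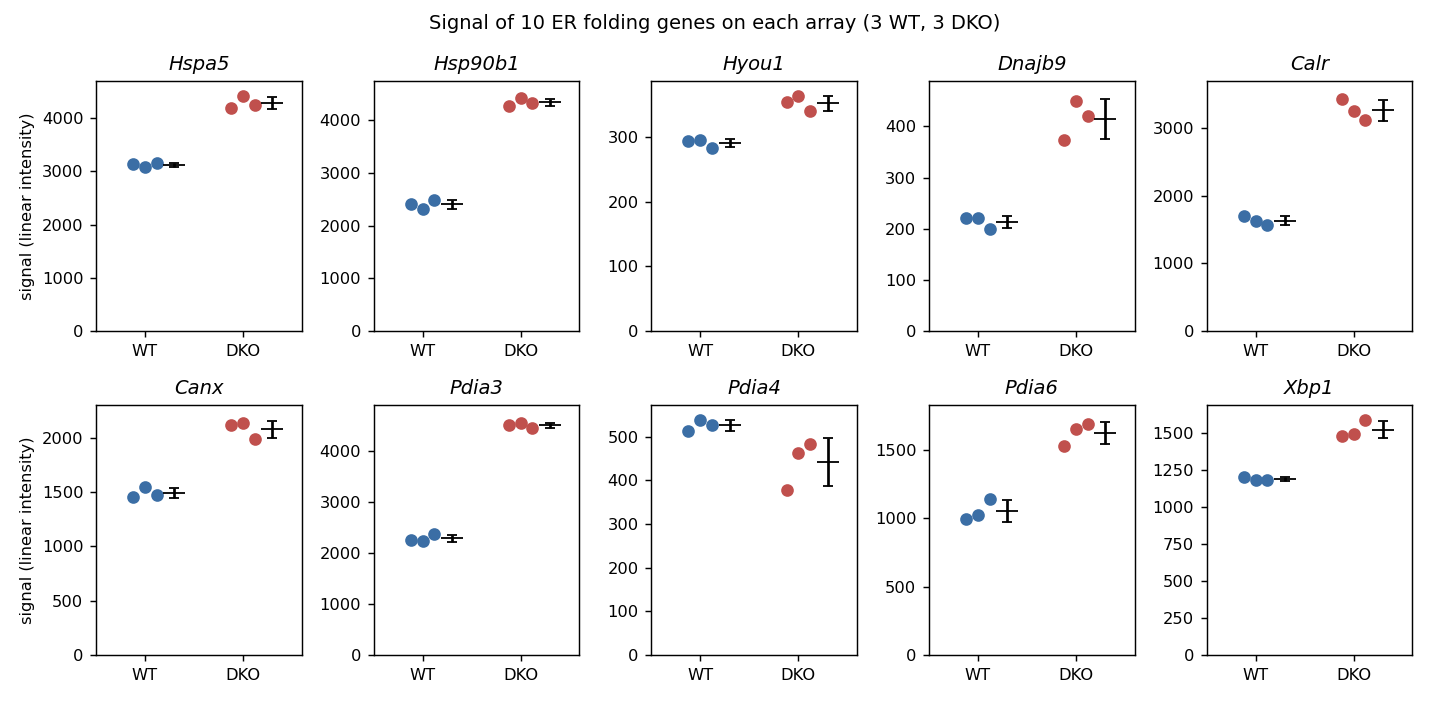
Signal (linear intensity, vertical axes starting at 0) of the main probe set of each of the 10 genes, with points for the 3 WT arrays (blue) and the 3 DKO arrays (red) and dashes with bars for group mean and SD (n = 3). Every DKO point lies above every WT point except in the Pdia4 panel, where the DKO arrays read 379.0 to 482.4 and the WT arrays 513.6 to 537.9.

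Hspa5 encodes BiP, the Hsp70 of the ER, which binds unfolded chains and holds the stress sensors inactive. Its signal was 3137, 3084 and 3148 on the WT arrays and 4181, 4404 and 4246 on the DKO arrays. The WT arrays lay close together and all DKO arrays were higher, by 1.37-fold in the group means (log2 difference 0.45 ± 0.04, SE; adjusted p = 3.58e-07). Hsp90b1 encodes GRP94, the Hsp90 of the ER, which folds integrins, Toll-like receptors and insulin-like growth factors. It read 2406, 2320 and 2480 in WT and 4277, 4411 and 4317 in DKO. This was a larger rise, 1.80-fold, at 0.85 ± 0.04 on the log2 scale (adjusted p = 1.16e-09), and its 95% interval, 0.76 to 0.93, does not overlap that of Hspa5, 0.37 to 0.53.

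Dnajb9 encodes ERdj4, a J-domain partner that makes BiP hydrolyse ATP and helps keep IRE1 off. It read 220.4, 221.3 and 199.9 in WT and 373.9, 449.96 and 419.6 in DKO, the widest relative spread among the 9 that rose. The DKO arrays were still all well above the WT arrays, at 1.94-fold (log2 difference 0.90 ± 0.07; adjusted p = 8.71e-08). Hyou1 encodes GRP170, a large Hsp70-like protein that exchanges the nucleotide on BiP. It read 293.6, 294.7 and 282.7 in WT and 353.95, 362.7 and 339.4 in DKO, the smallest rise of the 9 at 1.21-fold (log2 difference 0.26 ± 0.04; adjusted p = 0.000215). The rise of Hyou1 rests on 1 of its 3 probe sets: that probe set ends in s, a mark for probes that several transcripts share, and with the 3 averaged the log2 difference was 0.04 (adjusted p = 0.446).

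Calr and Canx encode calreticulin and calnexin, which hold newly made glycoproteins through their glucose-tipped sugar chains. Calreticulin is soluble in the ER lumen and stores calcium, and calnexin is anchored in the ER membrane. Calr had 1697, 1631 and 1562 in WT and 3420, 3243 and 3116 in DKO. Every DKO array exceeded the highest WT array by far, and the group means were 1630 ± 67.5 and 3260 ± 153 (SD, n = 3 each; log2 difference 0.99, 95% interval 0.89 to 1.09; adjusted p = 1.11e-09). Canx had 1458, 1547 and 1470 in WT and 2114, 2136 and 1991 in DKO. On the main probe sets it rose by less than its soluble relative, 1.39-fold (log2 difference 0.48, 95% interval 0.38 to 0.57, adjusted p = 5.39e-07), and these intervals do not overlap. A dimmer Canx probe set rose by 1.17 (95% interval 1.07 to 1.28), so the order of the pair depends on the probe set.

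The 3 disulfide isomerases went apart. Pdia3 encodes ERp57, which works on glycoproteins held by calreticulin and calnexin. It read 2254, 2232 and 2360 in WT and 4496, 4548 and 4439 in DKO, a 1.97-fold rise with little spread in either group (log2 difference 0.97 ± 0.04; adjusted p = 2.46e-10). Pdia6 encodes P5, an isomerase that acts on BiP clients. It read 996.6, 1023 and 1145 in WT and 1533, 1651 and 1692 in DKO, a 1.54-fold rise (log2 difference 0.62 ± 0.06; adjusted p = 6.51e-07). Pdia4 encodes ERp72, found in complexes with BiP and GRP94. It read 513.6, 537.9 and 526.2 in WT and 379.0, 462.7 and 482.4 in DKO. All DKO arrays were lower, but one of them stood apart from the other two, and the fall of 1.19-fold was the least certain of the 10 changes (log2 difference -0.25, 95% interval -0.41 to -0.09; adjusted p = 0.00942). Without that array, DKO replicate 1, the difference of Pdia4 was -0.15 (adjusted p = 0.0165). The call for Pdia4 was lost when each array was centred on its median (-0.15, adjusted p = 0.0596), and its direction turned with genes centred on their chromosome (0.03, adjusted p = 0.723) and with poly-A spike scaling (0.25, adjusted p = 0.0176).

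Xbp1 encodes the transcription factor of the IRE1 branch, whose messenger RNA becomes active after IRE1 cuts a short intron out of it; which form was present was not analysed here. Its signal was 1203, 1182 and 1181 in WT and 1481, 1494 and 1589 in DKO. The WT arrays nearly coincided and all DKO arrays were higher, by 1.28-fold (log2 difference 0.35 ± 0.04; adjusted p = 5.22e-06). The other probe sets of Xbp1 gave 0.20 and 0.31 where the signal was bright and 0.15 (adjusted p = 0.123 over all probe sets) where it was dim.

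The 15 further probe sets mostly moved as the main ones did. Over all 25, 19 rose, 2 fell and 4 did not pass at an adjusted p under 0.05 in the fit over 34945 probe sets, of which 26.3% rose and 31.4% fell. The other Calr probe sets rose by 1.02 and 1.11, the other Hsp90b1 probe set by 0.67, the second Hspa5 probe set by 0.42 and the second Canx probe set by 0.44. The third Canx probe set read 106.8, 109.1 and 108.7 in WT and 260.2, 266.3 and 265.3 in DKO, a 2.44-fold rise that exceeded the 1.39-fold of the main one. The second Pdia3 probe set was near the floor in WT, at 10.9, 10.9 and 10.5, and read 115.3, 123.7 and 104.9 in DKO. It was called higher, but its WT values lie below the median probe set signal of 15.6, so the size of its difference, 2.28 on log2(signal + 16), depends on the offset of 16. Both probe sets are dimmer than the main ones of their genes, and which transcripts they match was not analysed here. The third Hspa5 probe set went the other way, from 271.4, 249.4 and 221.9 in WT to 196.6, 171.1 and 159.6 in DKO (log2 difference -0.46 ± 0.08; adjusted p = 0.000338). It ends in x, a mark for probes that may cross-hybridise. The other Calr probe sets, which rose, end in x as well, and the second Hspa5 probe set ends in s. Averaged over its 3 probe sets, Hspa5 was at 0.14 in place of 0.45, and averaged over 2, Pdia3 was at 1.63 in place of 0.97, a size that depends on the same offset.

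**Figure D2:**
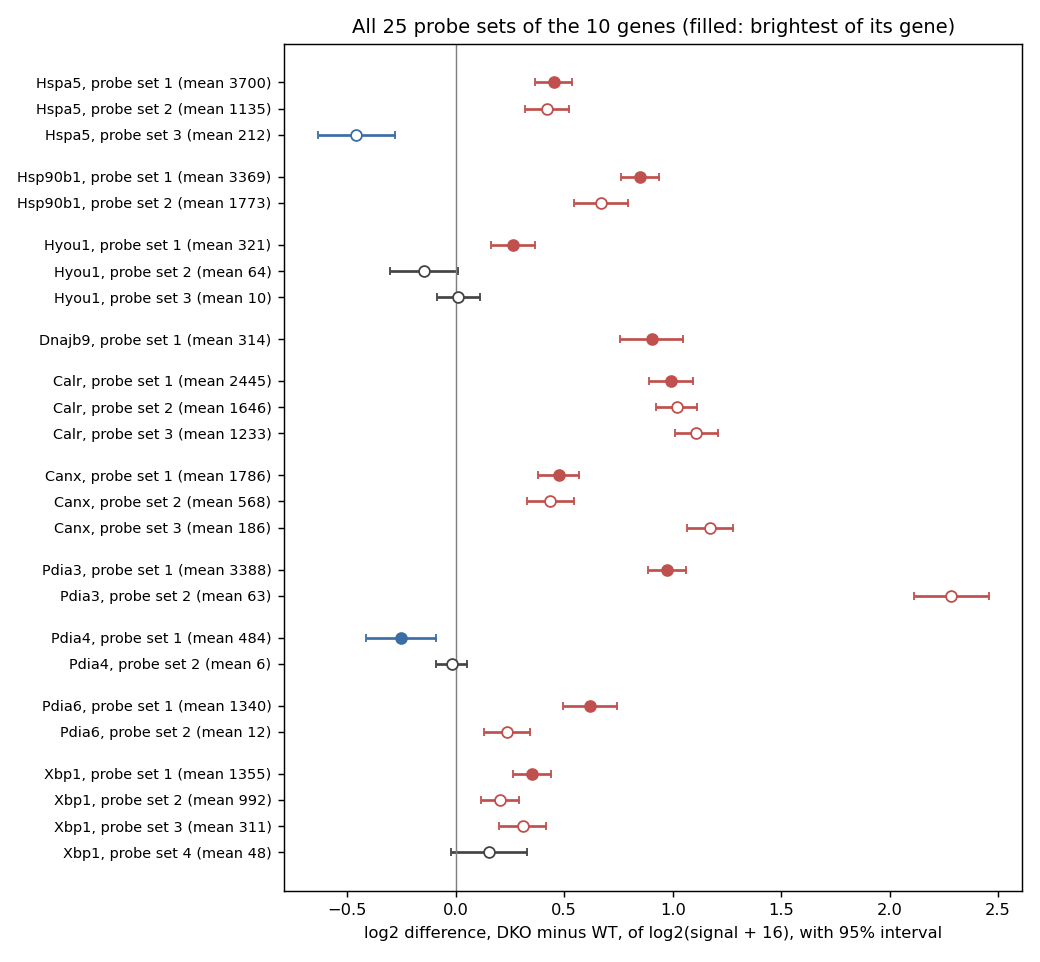
Log2 difference (DKO minus WT, horizontal axis) with its 95% interval for each of the 25 probe sets of the 10 genes, ordered by mean signal within a gene, filled for the main probe set, in red where called higher, blue where called lower and grey where not called. The points right of 0.2 include every Calr, Hsp90b1 and Canx probe set; the second Pdia3 probe set, near the floor in WT, is at 2.28 and the third Hspa5 probe set at -0.46.

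The promoters of several of these genes share letters. The genes were chosen for known roles in ER folding, and ATF6 and XBP1 are known to switch on such genes. The shares below are therefore a description and no independent test. The ER stress response element (ERSE) is a CCAAT box, bound by NF-Y, and the letters CCACG, bound by ATF6 and XBP1, set 9 bases apart. In the RefSeq promoter table (GRCm38.p6, 250 bases before to 50 after the start site, both strands searched), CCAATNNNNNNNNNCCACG was found in 5 of the 9 genes that the table holds, in Hspa5, Hsp90b1, Calr, Canx and Pdia6, and in 37 of all 27025 genes of the table (0.137%). Hyou1 had no entry. The stretches below run 5′ to 3′ on the strand of the gene from 10 bases before to 10 after the match, with the CCAAT and CCACG letters, or their reverse complements ATTGG and CGTGG, in capitals, and are shown because they carry the element that these genes share. Distances are counted back from the start site.
Hspa5, chr2:34772015-34772053, plus strand, -75 to -37: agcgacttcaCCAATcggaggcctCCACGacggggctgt
Calr, chr8:84847065-84847103, minus strand, -172 to -134: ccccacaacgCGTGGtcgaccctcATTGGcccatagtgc
Canx, chr11:50325790-50325828, minus strand, -155 to -117: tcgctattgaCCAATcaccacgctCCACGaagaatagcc
Pdia6, chr12:17266481-17266519, plus strand, -108 to -70: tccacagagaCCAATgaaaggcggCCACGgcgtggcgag
Hsp90b1, chr10:86705523-86705666, minus strand, -222 to -79: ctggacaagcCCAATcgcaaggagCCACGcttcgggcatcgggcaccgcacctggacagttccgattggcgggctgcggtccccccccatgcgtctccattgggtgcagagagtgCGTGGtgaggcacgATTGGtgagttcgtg

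Hsp90b1 held 2 matches, in opposite orientations, and the other 4 genes held 1 each. All 5 of these genes rose, with a median log2 difference of 0.62 and a range of 0.45 to 0.99. Of the 4 genes in the table without the element, Pdia3, Dnajb9 and Xbp1 rose and Pdia4 fell, with a median of 0.63. With 1 of the 10 fixed letters allowed to differ, Pdia3 and Pdia4 matched too, making 7 of 9, against 1.72% of all genes in the table. The letters ATTGG and CCACG set 1 base apart (ERSE-II) and TGACGTGG (the core bound by XBP1) were in none of the 9 windows and in 0.044% and 0.714% of all genes. The CCAAT box, which is part of ERSE, was in 8 of 9 and in 41.1% of all genes. A match is a description of the letters, and binding was not measured.

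Other ER chaperones and their cofactors also tended upward. Of 24 measured in this list, 16 rose, 4 fell and 4 did not pass, with a median of 0.33. Among all genes with a mean log2 signal above 7, 38.5% rose and 47.4% fell. Dnajc3, a BiP partner that also restrains PERK, rose from 438.4 ± 6.35 to 1403 ± 49.2, or 3.20-fold (log2 difference 1.64), more than any of the 10 genes. Creld1 (2.28, from 25.1 to 183.5) and the proline isomerase gene Fkbp7 (1.63) rose as well. Named after their values were seen, the BiP partners Dnajb11, Dnajc10 and Sil1 rose by 0.71, 0.80 and 0.36, and Sil1 lost its call under hybridization spike scaling (0.11, adjusted p = 0.169). The isomerase gene Fkbp11 fell from 344.7 ± 24.9 to 19.5 ± 0.83 (-3.34), a fall that was -0.03 when probe sets with the suffix x, s or a were set aside. Under hybridization spike scaling the list held 10 rises and 7 falls.

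The other disulfide isomerases and ER oxidases leaned the opposite way, with 5 of 18 higher, 11 lower and a median of -0.40. Falls were also the more common call among all brighter genes (38.5% higher, 47.4% lower). The thioredoxin-like gene Txndc12 fell from 816.6 to 351.97 (-1.18), Pdia5 from 305.04 to 140.7 (-1.04), the peroxiredoxin gene Prdx4, which reoxidises isomerases, from 1789 to 1062 (-0.74) and the sulfhydryl oxidase gene Qsox1 from 124.0 to 67.7 (-0.74). Named after their values were seen, P4hb, the classical disulfide isomerase, rose by 0.37 (0.105, adjusted p = 0.256, under hybridization spike scaling), and the oxidase genes Ero1a and Ero1b fell by 0.44 and 0.42, both turning to above 0 under poly-A spike scaling. A dimmer Ero1b probe set, below the median signal, was called higher. The 3 isomerases described above were divided too, with Pdia3 and Pdia6 higher and Pdia4 lower. Under poly-A spike scaling 4 genes of the list were lower and the median was 0.07.

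Of 12 sensors and transcription factors of the unfolded protein response, 4 rose and 6 fell, beside 38.5% and 47.4% of all brighter genes. Their median was -0.15 (0.35 under poly-A spike scaling, 0.01 with chromosomes centred). Ern1, which encodes IRE1 alpha, rose from 262.6 ± 20.3 to 447.7 ± 10.05 (0.74) and Creb3, a membrane-bound relative of ATF6, from 291.5 to 554.0 (0.89, but 0.04 with the suffixed probe sets set aside). Mbtps2, the site-2 protease that releases ATF6, fell from 466.1 to 222.5 (-1.01), and Ppp1r15a, which encodes GADD34, a phosphatase subunit that reverses the PERK signal, fell from 329.2 to 174.2 (-0.86). Named after their values were seen, Atf6 was at -0.54, the site-1 protease gene Mbtps1 at -0.57, Eif2ak3, which encodes PERK, at -0.18 and Atf4 at -0.32, all 4 called lower. Ddit3, which encodes CHOP, was at -0.12 (adjusted p = 0.0723) and not called with its main probe set, but another Ddit3 probe set was called higher. Under poly-A spike scaling Atf6 (-0.05, adjusted p = 0.633) and Mbtps1 (-0.07, adjusted p = 0.531) lost their calls and Eif2ak3 (0.31) and Atf4 (0.19) turned to above 0, and with arrays centred on the median Eif2ak3 was at -0.07 (adjusted p = 0.202).

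Of 20 genes of ER-associated degradation, which returns misfolded proteins to the cytosol, 9 rose and 8 fell, beside 38.5% and 47.4% of all brighter genes. Their median was 0.06. The lectins Os9 and Erlec1, which bring glycoproteins to the degradation complex, rose from 291.7 to 715.5 (1.25) and from 258.8 to 647.3 (1.27). Herpud1, a ubiquitin-like membrane protein, fell from 729.7 ± 65.8 to 311.8 ± 14.8 (-1.18), and Edem1, a mannose-trimming protein, from 320.1 ± 13.2 to 131.1 ± 10.7 (-1.19). Named after their values were seen, the ligase complex genes Sel1l and Syvn1 rose by 0.72 and 0.36 (Syvn1 0.12, adjusted p = 0.118, under hybridization spike scaling) and the channel genes Derl1 and Derl2 fell by 0.46 and 0.81, Derl1 turning to above 0 under poly-A spike scaling.

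Upstream of folding, genes of the translocon and signal peptidase gave 7 rises and 9 falls among 23 (median 0.00155), and those of the oligosaccharyl transferase and glucosidases 6 and 6 among 14 (median 0.07). Sec62, which helps feed chains into the ER, rose from 979.9 to 2636 (1.41), and the translocon-associated subunits went apart, with Ssr1 at 0.85 and Ssr2 at -0.62 (-0.11, adjusted p = 0.28, under poly-A spike scaling). Dad1, a subunit of the sugar transferase, rose 1.99-fold, from 1206 to 2404, while Mogs, the glucosidase that trims the first glucose, fell from 261.3 to 124.3 (-0.99). Over all 6 ER lists, 47 of 111 genes were called higher and 44 lower, around a median of 0.03, beside 38.5% and 47.4% of all brighter genes. The signs of the medians of the degradation, translocon and transferase lists, and of all 6 together, turned to below 0 under hybridization spike scaling, and that of the translocon list also with quantile normalization (-0.00845) and with probe sets averaged (-0.02).

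Chaperones of the cytosol and mitochondria, outside the ER, gave 9 rises and 15 falls among 31, beside 38.5% and 47.4% of all brighter genes. Their median of -0.07 was above 0 with arrays centred on the median, with chromosomes centred and under poly-A spike scaling. Hspa1b, a heat-inducible cytosolic Hsp70, rose from 27.5 ± 0.77 to 315.1 ± 14.1, although its near-identical copy Hspa1a was read at 2.12 and 2.67, so the assignment between the copies is uncertain. The J-domain gene Dnajb4 rose by 1.33 and the mitochondrial Hsp90 gene Trap1 fell by 0.87. Cryab, a small heat shock protein, rose by 1.65, or by 0.03 with the suffixed probe sets set aside. Named after its value was seen, the cytosolic Hsp90 gene Hsp90aa1 was higher by 0.77, near the 0.85 of its ER relative Hsp90b1.

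**Figure D3:**
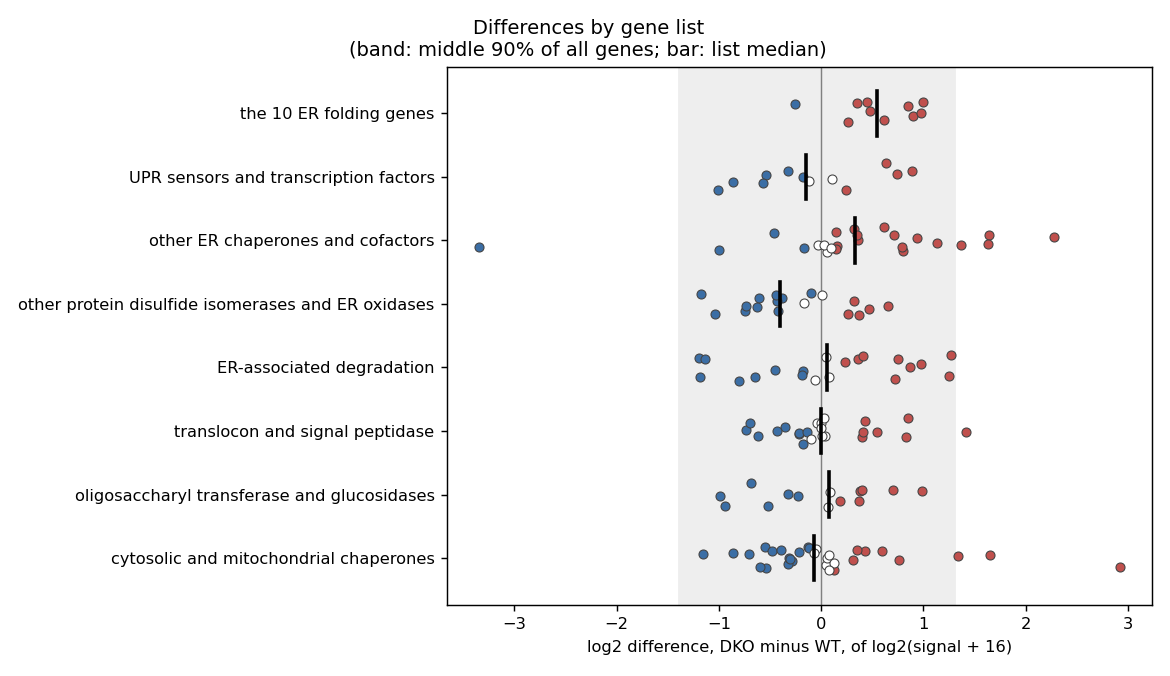
Log2 difference (DKO minus WT, horizontal axis) of each measured gene in the set of 10 and in 7 lists of related genes, one row per list, in red where called higher, blue where called lower and white where not called, with a bar at each list's median and a grey band from -1.39 to 1.31 holding the middle 90% of all genes. All 10 genes lie inside the band, and the medians run from -0.40 for the other isomerases and oxidases to 0.55 for the 10 genes.

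The size of the rises depended on how the arrays were put on one scale. The mean log2 signal of the poly-A spike controls differed between the groups by -0.52 and that of the hybridization spike controls by 0.26 (two-sided exact permutation p = 0.1 for each, the smallest possible). Scaling on the former moved the median of genes above a mean log2 of 7 from -0.08 to 0.41 and the median of the 10 genes from 0.55 to 1.06, with all 10 called higher. Scaling on the latter moved them to -0.33 and 0.29, with 6 called higher; Hspa5 was then at 0.19 (adjusted p = 0.0569), Xbp1 at 0.09 (0.222) and Hyou1 at 0.01 (0.874). Relative to the median of the brighter genes, the median of the 10 was 0.62 as deposited, 0.65 with poly-A and 0.61 with hybridization spikes. Pdia4 was below that median under each, by -0.17, -0.16 and -0.18. Spike scaling divides all signals of an array by the same factor, so these relative values had to stay alike. Their likeness is no check of the rises. Genes also shifted by chromosome: the brighter genes had a median of -0.50 on chromosome 8, where Calr lies, and -0.29 on chromosome 6, where Pdia4 lies. It was -0.22 on chromosome 12 (Dnajb9 and Pdia6), 0.23 on chromosome 10 (Hsp90b1) and 0.14 on chromosome 11 (Canx and Xbp1). The lowest chromosome median was -0.72, on chromosome 4, and the highest 0.47, on chromosome 14, where Dnajc3 lies. With chromosomes centred, Calr was at 1.49 and Dnajb9 at 1.12, while Hsp90b1 was at 0.61 and Canx at 0.33. The part of the chromosome shifts in each difference was not tested.

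**Figure D4:**
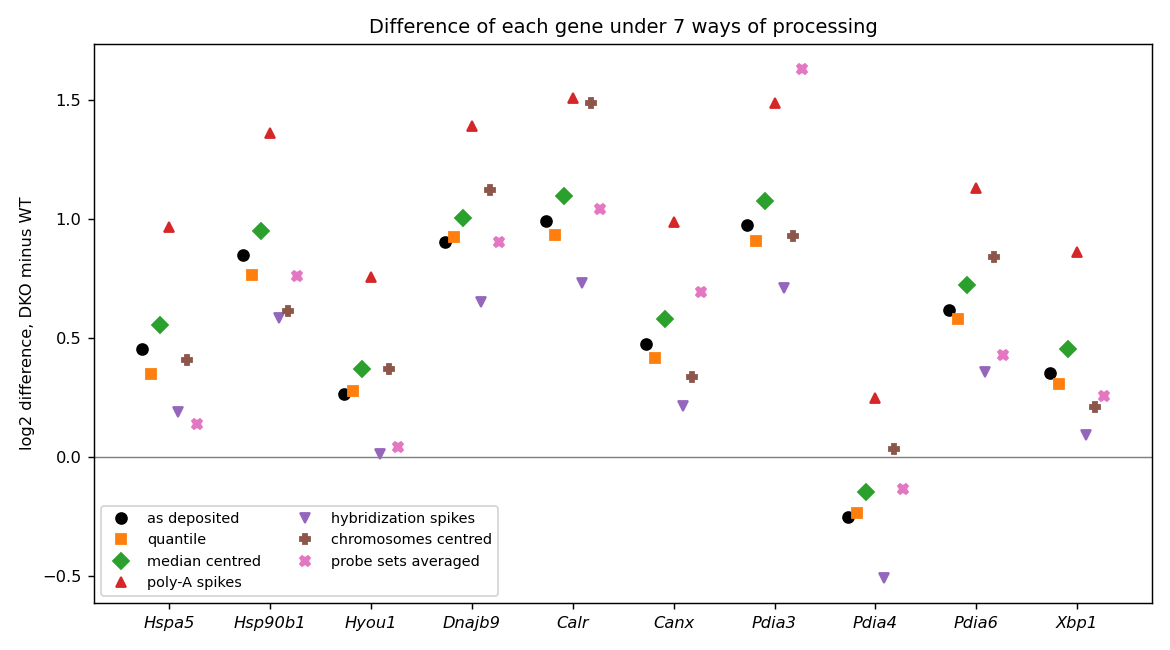
Log2 difference (DKO minus WT, vertical axis) of each of the 10 genes as deposited and under 6 other ways of processing, one symbol each, with a line at 0. Calr, Pdia3, Dnajb9 and Hsp90b1 stay above 0.58 under all 7, Hyou1 ranges from 0.01 to 0.76, and Pdia4 is the gene that lies below 0 under most of them.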

How the data were processed

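Per the labels, RNA of cultured fibroblasts was labelled with biotin and hybridised to Affymetrix arrays. The deposited values are linear intensities, 1 for each probe set on each array. They were made with MAS5, per the submitters' processing notes; version and scaling target: not given in the sources used here. Groups came from the sample titles. Of 45101 probe sets, 34945 had 1 gene symbol, 34741 of them matched by Entrez number to RefSeq (GRCm38.p6), and the others (932 with several symbols, 9160 unnamed here, 64 controls) were left out. Signals were taken as log2(signal + 16), each gene by the probe set with the highest mean of these values, giving 18193 genes. Differences, DKO minus WT, were fitted in limma 3.58.1 (R 4.3.3; lmFit, then eBayes with a mean-variance trend). Two-sided p-values were adjusted over all genes by Benjamini and Hochberg's method; intervals are 95%. The fit was tested on simulated data. A gene rose or fell at an adjusted p under 0.05.

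The members, the lists and the alternatives were chosen with earlier results of these data known. Named genes are the 10, Abl1, Abl2, up to 4 per list with the largest called difference (no overlap, a group mean above the median probe set, no probe set called the opposite way), and the 5 profiles nearest to Hspa5; others are marked as named after their values were seen. Lists are described by counts, with no set test. Spike scaling used the control probe sets. Promoter sequences are RefSeq's; proteins were not analysed here. The number of arrays limits the precision.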

Additional observations from a re-analysis of the deposited data

How the results depend on the processing

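Of 20 alternatives, each of Hsp90b1, Dnajb9, Calr, Canx, Pdia3 and Pdia6 kept its direction and its call under all that gave it a value; Hspa5, Hsp90b1 and Calr have only probe sets with the suffix x, s or a. Weaker calls were Hspa5 (0.19), Hyou1 (0.013) and Xbp1 (0.0905) under hybridization spike scaling, Hyou1 (0.042) with probe sets averaged, Xbp1 (0.15) with suffixed probe sets set aside, and Pdia4 (-0.15) with arrays centred on the median. Hyou1 reversed to -0.15 (adjusted p = 0.105) with suffixed probe sets set aside, and Pdia4 to 0.25 with poly-A spikes as the scale and 0.033 after centring chromosomes. Rises among the 10 numbered 4 of 7 with suffixed probe sets set aside, and falls numbered 0 after centring arrays or chromosomes and with poly-A spikes. Leaving out each array moved Pdia4 between -0.32 and -0.15 and kept all 10 calls. Abl1 was at 0.36 under poly-A (reversed), -0.35 under hybridization spike scaling, 0.13 with probe sets averaged (reversed) and -0.16 with chromosomes centred; Abl2 was at 0.48, -0.26, 0.017 with quantile normalization, 0.0925 with arrays centred on the median and 0.15 with chromosomes centred, and between -0.044 and 0.019 with an array left out (0.00593 without WT replicate 2, 0.00123 without WT replicate 3 and 0.0191 without DKO replicate 3). All genes called higher were 8378 with arrays centred on the median and 10435 under poly-A spike scaling, against 4411; those called lower were 2809 and 10722 with poly-A and hybridization spikes and 4261 after dropping dim genes, against 6455. Over the 6 ER lists, rises were 74 and 28 under poly-A and hybridization spike scaling, and falls 16 under poly-A, against 47 and 44. The median of all genes, -0.03, was 0.12 under poly-A spike scaling and 0.07 with arrays centred on the median. The cause of these shifts was not tested. The main fit did not treat arrays of the same replicate number as pairs. Correlations of deviations were 0.0648, 0.249 and 0.286 for same-numbered arrays, each the highest of its array, so a pairing is not excluded. With replicate number as a block 9 of the 10 rose and 1 fell, Pdia4 at -0.25.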

Other observations

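Beyond the 10 genes, 15 measured genes had the ERSE letters in their promoter window. Of these, 5 rose, 5 fell and 5 did not pass, with a median log2 difference of -0.01, and 11 had a mean log2 signal of 7 or less, several of them near the floor. Named after their values were seen, among the 4 with a mean log2 signal above 7, 3 rose: Dnajc3 (1.64), Syvn1 (0.36), the ER ubiquitin ligase, and Creld2 (0.32), a secreted ER stress protein, while Pan2 was at -0.16 (adjusted p = 0.0601). Under hybridization spike scaling Syvn1 (0.12, adjusted p = 0.118) and Creld2 (0.06, adjusted p = 0.331) lost their calls. The largest fall of the 15 was of Acacb, an acetyl-CoA carboxylase, from 86.1 ± 6.57 to 29.2 ± 3.41 (SD, n = 3 each), and the ER oxidase gene Ero1b fell from 116.5 ± 14.4 to 82.8 ± 1.54, a fall that turned to 0.03 under poly-A spike scaling, and a dimmer Ero1b probe set was called higher.

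The genes whose 6-array profile lay nearest to that of Hspa5, by the root mean square difference of log2 values centred on their mean, were Psmd12, Snap47, Psmd1, Cox6c and Dcp1a, at 0.02 to 0.03, among 6634 genes compared. None is a gene of ER folding. Of the other 9 genes, Canx came nearest, at rank 110 (0.05), followed by Xbp1 (rank 279), and Pdia4 was farthest. With 6 arrays in 2 groups, this measure mostly orders genes by the size of their group difference.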
